A study of Mus musculus with 6 samples.

Results

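The integrated stress response genes described here are 10 genes read in blasts of Cebpa-mutant acute myeloid leukemia (AML) with and without Tet2. They are Atf4 and Ddit3, which encode its central transcription factors, and Asns, Chac1, Trib3, Psat1, Phgdh, Shmt2, Sesn2 and Ddit4, which act downstream. They were listed by symbol, with no threshold on a measured value but with earlier results of these data known, and they are 10 of 53458 annotated genes. All 10 were among the 22170 genes abundant enough to be tested.

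Leukemic bone marrow was sorted for blasts in 2 genotypes of C57BL/6 strain per the labels, Cebpa-/p30 Tet2+/+ (the mice numbered 19, 23 and 24) and Cebpa-/p30 Tet2-/- (the mice numbered 5, 7 and 8), and each mouse gave 1 RNA-seq library. Both groups carried one Cebpa allele that makes only the short p30 isoform and one that was deleted by Mx1-Cre, an interferon-inducible Cre that is not specific to blasts, and in Tet2-/- mice the same Cre also deleted Tet2. C57BL/6J donor marrow was grafted into lethally irradiated female C57BL/6J.SJL recipients aged 10 to 12 weeks, Cre was switched on 6 weeks later by 2 injections of poly(I)-poly(C), and blasts were taken from moribund mice as live donor cells without T, B or erythroid surface markers. The comparison asks how the RNA of these genes differed when TET2, an enzyme that oxidizes methylated cytosine, was missing. The paper reports a shorter median survival of recipients of Tet2-/- than of Tet2+/+ cells, and blasts were taken when mice were moribund. Genotype, time to leukemia and age at sampling therefore cannot be told apart here.

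The integrated stress response starts when one of several kinases phosphorylates the translation initiation factor eIF2, which slows most protein synthesis but favors translation of the Atf4 mRNA. ATF4 then binds composite elements near genes for amino acid synthesis, amino acid uptake and redox balance, and under lasting stress it induces CHOP, the product of Ddit3. Because ATF4 is controlled largely in translation, the level of its mRNA is only one measure of the pathway, and the amount of ATF4 protein was not measured here.

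Libraries held between 13036643 and 32855343 estimated reads. Markers of myeloid blasts and progenitors were present in every library (9 of 9 detected, with a summed level of 6834 to 9115 CPM, which are reads scaled to library size by TMM factors). Mature neutrophil markers (8 of 8 detected) had a higher sum than these in every library. It was 10220 to 54320 CPM in Tet2+/+ and 23160 to 109600 CPM in Tet2-/- mice, so the sorted cells were not blasts alone. Tet2 had 83.8 ± 13 CPM (SD, n = 3) in Tet2+/+ and 95.8 ± 16 (SD, n = 3) in Tet2-/- blasts, a sum over the whole gene that does not check the removal of a part of it. Cebpa had 207 ± 74.4 (SD, n = 3) against 119 ± 41.2 (SD, n = 3), with a log2 fold change of -0.80 and an adjusted p of 0.632 in edgeR's quasi-likelihood test. Marker sums that did not overlap between genotypes were those of plasma cells (7 of 7 markers detected, 144 to 204 CPM in Tet2+/+ and 32.3 to 62.0 in Tet2-/-) and of basophils and mast cells (6 of 6 detected, 287 to 374 against 26.7 to 110 CPM), both lower in Tet2-/- blasts. In bulk RNA, fewer cells of a type and less RNA per cell cannot be told apart.

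The composite element bound by ATF4 with a C/EBP partner is of interest in blasts whose C/EBPα is mutant, so the sequences around gene starts were read first. In RefSeq windows of GRCm38.p6 from 250 bases before to 50 bases after each gene start, the 8 letters TGATGNAA were searched on both strands. They occurred in the windows of 3 of 10 members, against 4.51% of 27025 genes. The palindrome TGACGTCA, the letters of a full cyclic AMP response element, occurred in 0 of 10 members and in 2.03% of genes. The 3 windows with a match are printed below for the strand of the gene, 5′ to 3′, with the matching letters in capitals.
Asns: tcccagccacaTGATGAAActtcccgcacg
Chac1: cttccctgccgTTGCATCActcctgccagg
Trib3: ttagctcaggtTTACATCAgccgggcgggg
The Asns window lies on the minus strand at chr6:7693214-7693243, the Chac1 window on the plus strand at chr2:119351038-119351067 and the Trib3 window on the minus strand at chr2:152344028-152344057. The match in Asns runs in the direction of the gene and those in Chac1 and Trib3 run against it. The RefSeq and GENCODE starts differ, so that upstream and inside trade places for Asns and Trib3. Against the RefSeq start, the matches begin at -23 in Asns and -193 in Chac1, upstream of it, and 14 bases inside the gene in Trib3. Against the outermost GENCODE start, the match in Asns begins 22 bases inside the gene, and those in Chac1 and Trib3 begin at -180 and -14, upstream of it. A match in letters is a description and not a bound site. The 3 genes with a match are Asns, the gene with the largest fold change of the 10, Chac1, the second largest, and Trib3, the one gene with a negative fold change.

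Asns was higher in all 3 Tet2-/- mice than in any Tet2+/+ mouse, and it was the only 1 of the 10 genes whose groups did not overlap. Asns (ENSMUSG00000029752, chromosome 6 of GRCm38 from 7675169 to 7693254, minus strand) encodes asparagine synthetase, which makes asparagine from aspartate and glutamine. It had 3.65, 3.37 and 6.48 CPM in mice 19, 23 and 24, and 28.3, 21.6 and 14.7 CPM in mice 5, 7 and 8. The lowest Tet2-/- mouse was thus above the highest Tet2+/+ mouse, and within each genotype the levels spanned 1.92-fold. The means were 4.50 ± 1.72 (SD, n = 3) and 21.5 ± 6.77 (SD, n = 3), a 4.78-fold higher mean in Tet2-/- blasts. These values rest on 61, 63 and 92 estimated reads in the Tet2+/+ libraries and on 893, 336 and 271 in the Tet2-/- libraries.

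By edgeR's quasi-likelihood test, the log2 fold change of Asns was 2.26 with a standard error of 0.37 and a 95% interval from 1.38 to 3.14. Its unadjusted p of 0.000489 was the 67th smallest of 22170, and its Benjamini-Hochberg adjusted p of 0.158 did not pass the threshold of 0.05. The exact two-sided permutation test gave p = 0.1, the smallest that 3 against 3 mice allow. DESeq2 on the same counts gave Asns an adjusted p of 9.27e-06 with a log2 fold change of 2.27. DESeq2 on length-scaled counts, the kind of input used in the study's methods, gave 3.36e-11 with a log2 fold change of 3.24, and edgeR without the filter on low counts gave 0.0454. The direction was the same under all 13 alternatives, with log2 fold changes from 2.0 to 3.24 and adjusted p up to 0.524, and whether the gene was called depended on the tool and the filter.

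**Figure D1:**
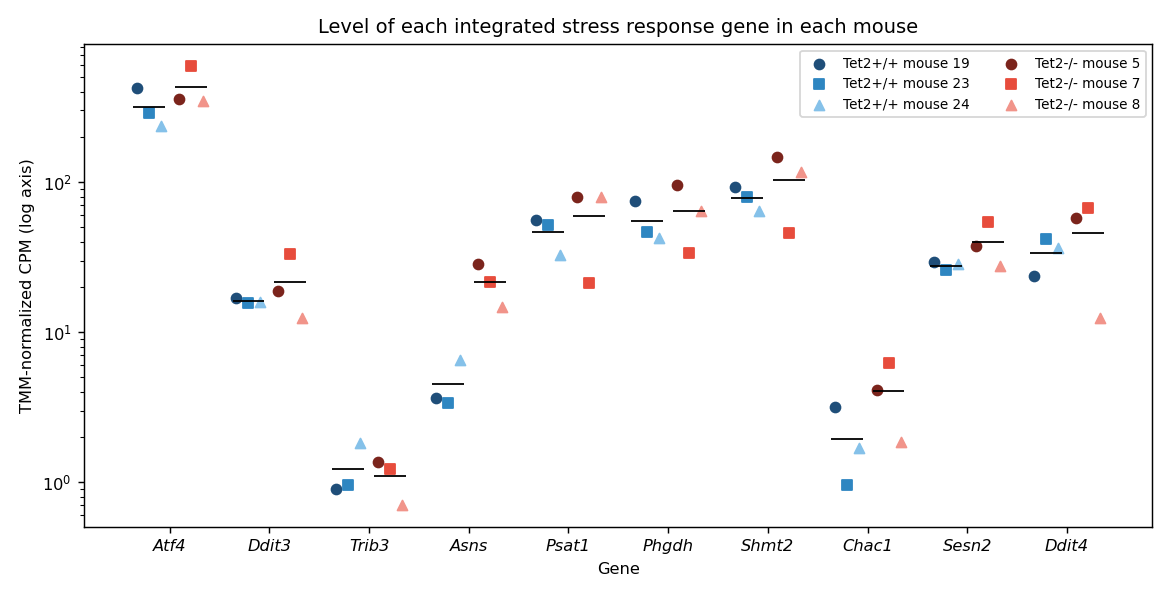
Level of each of the 10 genes in each mouse, as TMM-normalized CPM on a log axis, with Tet2+/+ mice in blue, Tet2-/- mice in red and horizontal lines at the group means (n = 3). Asns is the gene whose red points (14.7 to 28.3) all lie above its blue points (3.37 to 6.48), and the points of the other 9 genes overlap.

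Length-scaled counts weight a read by the length of its transcript, and in Tet2-/- libraries some Asns reads were assigned to short annotated transcripts. Asns has 7 annotated transcripts, of which Asns-201 (2001 nt) is the full-length coding one. Asns-201 alone had 56.3, 63.0 and 90.3 estimated reads in the Tet2+/+ libraries, against 735, 268 and 225 in the Tet2-/- libraries, in the order of mice given above. Scaled to CPM this was 4.37 ± 1.73 (SD, n = 3) against 17.6 ± 5.53 (SD, n = 3), a 4.02-fold higher mean, so the difference was present in the main transcript taken alone. Asns-206, a non-coding transcript of 448 nt toward the 3′ end of the locus, was estimated at 0 reads in each Tet2+/+ library and at 88.7, 41.1 and 34.1 reads in mice 5, 7 and 8. The estimate of 0 is how Salmon divided 61, 63 and 92 Asns reads in the Tet2+/+ libraries, and it does not show that the transcript was absent. Asns-207, a coding fragment of 431 nt, was estimated at 2.80, 0 and 0 reads in mice 19, 23 and 24 and at 69.1, 18.5 and 11.9 in mice 5, 7 and 8.

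The share of Asns reads given to Asns-201 was 92.3%, 100% and 98.2% in Tet2+/+ and 82.3%, 79.9% and 83.0% in Tet2-/- blasts. The groups did not overlap, with means of 96.8% ± 4.01 (SD, n = 3) and 81.7% ± 1.66 (SD, n = 3) and an exact permutation p of 0.1. In TPM, Salmon's length-corrected abundance, where a read of a short transcript weighs more, the mean share of Asns-201 was 82.6% against 34.7%. These forms belong to 1 locus, and Salmon divides reads between them by estimation, so the split is less certain than the gene total. In the TPM of Asns-201 alone, the mean was 1.42 ± 0.60 (SD, n = 3) against 5.20 ± 1.48 (SD, n = 3).

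**Figure D2:**
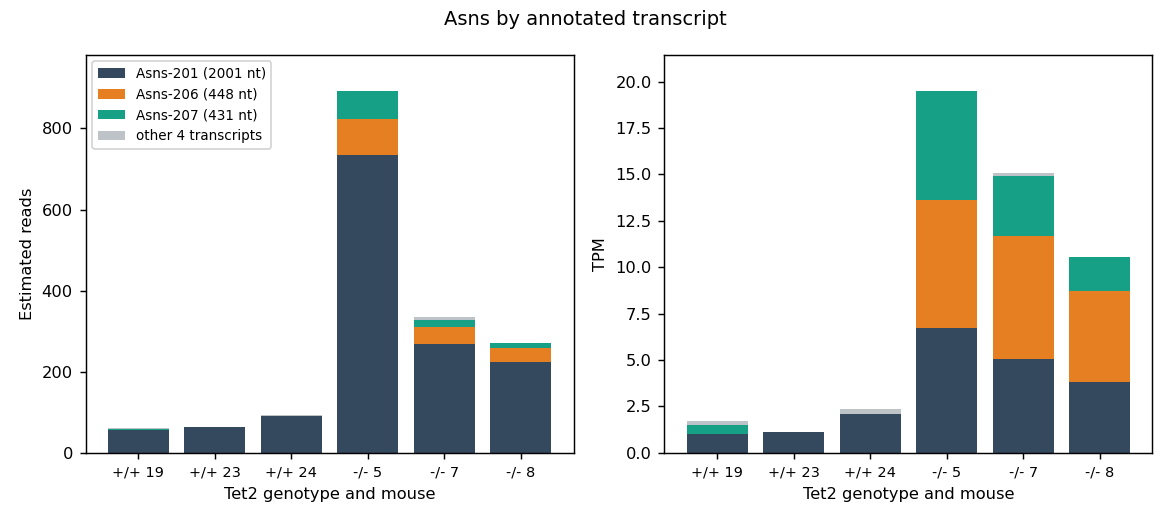
Estimated reads (left) and TPM (right) of Asns in each mouse, stacked by annotated transcript. Asns-201 gives most of the reads in every mouse, while in TPM the 2 short transcripts Asns-206 and Asns-207 make up more than Asns-201 in Tet2-/- mice, where the mean share of Asns-201 was 34.7%.

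None of the 10 genes passed an adjusted p of 0.05 in edgeR's quasi-likelihood test, where 0.0451% of all tested genes were called lower and 0% higher. At an unadjusted p under 0.05, 1 of 10 was higher, against 3% of all tested genes, and 0 of 10 were lower, against 5.12%. DESeq2 on the same counts called 1 of 10 higher, which was Asns, against 0.331% of the genes it adjusted, and 0 lower, against 1.83%. On length-scaled counts it called the same gene, against 0.341% higher and 1.73% lower overall. Between the groups, 1 of 10 genes was higher in all 3 Tet2-/- mice without overlap, against 6.41% of tested genes, and 0 of 10 were lower, against 7.94%. Among tested genes that average 1 CPM or more, as all 10 do, these percentages were 8.24% and 7.71%. Fold changes were above 0 for 9 of 10 genes, against 50.1% of all tested genes, with a median log2 fold change of 0.42 over the 10 genes and 0.0016 over all. Apart from Asns, the 95% interval of every gene held 0.

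**Figure D3:**
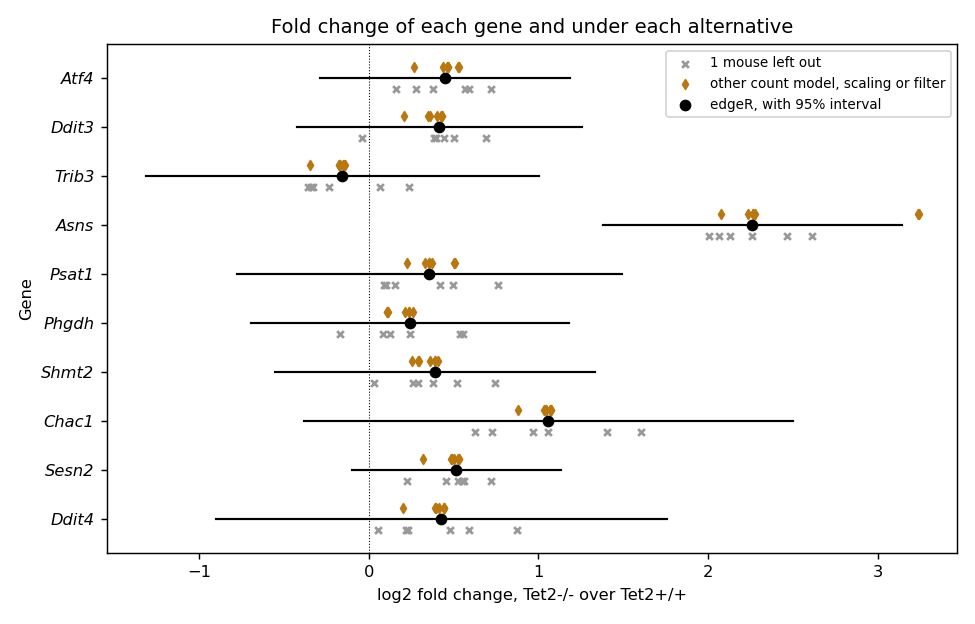
Log2 fold change of each gene, Tet2-/- over Tet2+/+, from edgeR's quasi-likelihood test (black points, with 95% intervals), under other count models, scalings or filters (brown) and with 1 mouse left out (grey). The interval of Asns runs from 1.38 to 3.14 and those of the other 9 genes include 0.

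Among the regulators, Atf4 was the most abundant gene of the 10. Atf4 (ENSMUSG00000042406, chromosome 15 from 80255184 to 80257541, plus strand) had 426, 288 and 237 CPM in mice 19, 23 and 24 and 359, 594 and 347 CPM in mice 5, 7 and 8. Mouse 7 was highest, and mouse 19 exceeded both other Tet2-/- mice. The means of 317 ± 97.8 (SD, n = 3) and 433 ± 140 (SD, n = 3) gave a log2 fold change of 0.45 ± 0.31 (SE), with an interval from -0.28 to 1.19 and an edgeR adjusted p of 0.759. Without mouse 19, both remaining Tet2+/+ mice were below all Tet2-/- mice.

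Reads of Atf4 fell mainly on 2 of its 3 annotated transcripts. The coding transcript Atf4-201 (1725 nt) took 57.5% ± 0.83 (SD, n = 3) of the reads in Tet2+/+ and 64.3% ± 5.87 (SD, n = 3) in Tet2-/- blasts, with overlap (exact permutation p = 0.2). Atf4-203 (2019 nt), annotated as a transcript with a retained intron, took 37.2%, 37.2% and 41.0% in the Tet2+/+ libraries and 27.3%, 35.0% and 24.3% in the Tet2-/- libraries. It was singled out after its values were seen. Its share did not overlap between the genotypes, and the exact permutation test gave p = 0.1. The level of Atf4-203 itself did overlap, with 121 ± 32.9 CPM (SD, n = 3) and 130 ± 68.0 CPM (SD, n = 3). The level of Atf4-201 was 182 ± 55.7 CPM (SD, n = 3) and 273 ± 61.3 CPM (SD, n = 3).

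Ddit3, which encodes CHOP, a bZIP factor that promotes cell death under lasting stress, was nearly the same in the Tet2+/+ mice and spread out in the Tet2-/- mice. Ddit3 (ENSMUSG00000025408, chromosome 10 from 127290774 to 127296288, plus strand) had 16.9, 15.7 and 15.8 CPM in mice 19, 23 and 24 and 18.9, 33.4 and 12.4 CPM in mice 5, 7 and 8. The Tet2+/+ values spanned 1.07-fold and the Tet2-/- values 2.70-fold, on both sides of the Tet2+/+ level. The log2 fold change was 0.42 ± 0.36 (SE) with an edgeR adjusted p of 0.812, and without mouse 7 it was -0.04. A second annotated Ddit3 locus (ENSMUSG00000116429) lies inside the first one and holds a single transcript of 105 nt whose sequence is shared with it. It was kept apart. It had between 3.7 and 18.3 reads per library, yet its short length turned these into 36.8 to 138 TPM, so the TPM of that locus is no measure of CHOP. Ddit3 also overlaps Mars on the other strand by 68 bases, and the library kit does not mark strand.

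The coding transcript Ddit3-201 (890 nt) took 52.7% ± 4.58 (SD, n = 3) of Ddit3 reads in Tet2+/+ and 65.2% ± 7.62 (SD, n = 3) in Tet2-/- blasts, with overlap (exact permutation p = 0.2). Ddit3-202, annotated with a retained intron, took 32.3%, 30.7% and 22.1% in the Tet2+/+ libraries and 13.8%, 32.5% and 16.5% in the Tet2-/- libraries. As for Atf4, mouse 7 was the Tet2-/- mouse with the highest share of the retained-intron form, but here its value exceeded the Tet2+/+ values too.

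Trib3, a pseudokinase that is induced by ATF4 and CHOP and feeds back on ATF4, was close to the limit of measurement. Trib3 (ENSMUSG00000032715, chromosome 2 from 152337422 to 152344032, minus strand) had 0.897, 0.964 and 1.83 CPM in mice 19, 23 and 24 and 1.36, 1.22 and 0.705 CPM in mice 5, 7 and 8, from 13 to 43 reads per library. All reads were assigned to Trib3-201 in every mouse. The log2 fold change of -0.16 ± 0.49 (SE) had an edgeR adjusted p of 0.961 and turned positive without mouse 24 (0.24) or without mouse 8 (0.07), so no direction could be read.

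The 3 other enzymes of amino acid synthesis shared one pattern over the mice that differed from that of Asns. Phgdh and Psat1 encode the first and second enzymes of the route from glycolysis to serine, and Shmt2 encodes the mitochondrial enzyme that turns serine into glycine and one-carbon units. Psat1 (ENSMUSG00000024640, chromosome 19 from 15904678 to 15947337, minus strand) had 55.6, 52.0 and 32.5 CPM in mice 19, 23 and 24 and 79.0, 21.3 and 79.2 CPM in mice 5, 7 and 8. Phgdh (ENSMUSG00000053398, chromosome 3 from 98313170 to 98339990, minus strand) had 75.0, 46.6 and 42.2 CPM and then 95.7, 33.6 and 64.2 CPM in the same order. Shmt2 (ENSMUSG00000025403, chromosome 10 from 127517123 to 127522444, minus strand) had 92.4, 79.2 and 64.1 CPM and then 147, 45.9 and 116 CPM. For each of these genes, mouse 7 was the lowest of all 6 mice. Mouse 5 was the highest for Phgdh and Shmt2, and for Psat1 mouse 8 was highest with mouse 5 close to it.

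The fold changes of these enzymes were accordingly small against their spread. Psat1 had a log2 fold change of 0.36 ± 0.48 (SE) and an edgeR adjusted p of 0.884. For Phgdh these were 0.24 ± 0.40 (SE) and 0.908, and for Shmt2 0.39 ± 0.40 (SE) and 0.847. Levels within the Tet2-/- group spanned 3.71-fold for Psat1, 2.85-fold for Phgdh and 3.20-fold for Shmt2, against 1.71-fold, 1.78-fold and 1.44-fold within the Tet2+/+ group. Without mouse 7, Psat1 and Shmt2 joined Asns in having no overlap between genotypes (3 of 10 genes higher, against 15.1% of tested genes). Without mouse 5, the log2 fold change was -0.17 for Phgdh, 0.09 for Psat1 and 0.03 for Shmt2. Without mouse 7 these were 0.56, 0.76 and 0.75, and without mouse 8 that of Psat1 was 0.10. Their main transcripts took similar shares in both genotypes, with overlap for each, at 60.7% and 59.6% for Psat1-201, 88.6% and 91.1% for Phgdh-201, and 62.0% and 58.7% for Shmt2-201. Phgdh shares near-identical sequence with processed copies elsewhere in the genome, but each of these copies held at most 1.8 reads in any library.

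The effectors Chac1, Sesn2 and Ddit4 each had their highest level in mouse 7, in contrast to the serine genes. Chac1 (ENSMUSG00000027313, chromosome 2 from 119351229 to 119354381, plus strand) encodes an enzyme that degrades glutathione. It had 3.17, 0.964 and 1.69 CPM in mice 19, 23 and 24 and 4.08, 6.24 and 1.85 CPM in mice 5, 7 and 8, from 18 to 129 reads per library. Its log2 fold change of 1.06 ± 0.61 (SE) was the second largest of the 10, with an interval from -0.38 to 2.50 and an edgeR adjusted p of 0.704. Leaving out a mouse gave values from 0.625 (without mouse 7) to 1.607 (without mouse 19). Without mouse 7, those of Psat1 and Shmt2 were larger, at 0.761 and 0.747. Mouse 8 lay within the Tet2+/+ range, while mice 5 and 7 were above it.

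Sesn2 (ENSMUSG00000028893, chromosome 4 from 132492032 to 132510501, minus strand) encodes sestrin 2, a leucine sensor that restrains mTORC1. It had 29.1, 25.9 and 28.3 CPM in mice 19, 23 and 24 and 37.2, 54.5 and 27.6 CPM in mice 5, 7 and 8. The Tet2+/+ mice were close together, with a 1.12-fold span, and mouse 8 fell among them. The log2 fold change was 0.52 ± 0.26 (SE) with an interval from -0.10 to 1.13, an unadjusted p of 0.0887 and an edgeR adjusted p of 0.665. It was the second smallest unadjusted p of the 10 genes.

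Ddit4 (ENSMUSG00000020108, chromosome 10 from 59949669 to 59951834, minus strand) encodes REDD1, another restraint on mTORC1, which also responds to hypoxia and glucocorticoids. It had 23.6, 41.7 and 36.3 CPM in mice 19, 23 and 24 and 57.4, 66.8 and 12.4 CPM in mice 5, 7 and 8. Its span of 5.38-fold within the Tet2-/- group was the widest of the 10 genes, since mice 5 and 7 were the highest and mouse 8 the lowest of all 6. The log2 fold change was 0.43 ± 0.57 (SE) with an edgeR adjusted p of 0.881. Without mouse 7 it was 0.053, and without mouse 8 it was 0.873.

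Mouse 7 thus had the highest level of some of the 10 genes and the lowest of others. Of the 6 mice it had the highest level of Atf4, Ddit3, Chac1, Sesn2 and Ddit4 (5 of 10 genes) and the lowest level of Psat1, Phgdh and Shmt2 (3 of 10). The split was noticed after the values were seen. Of the 13839 tested genes that average 1 CPM or more, mouse 7 was highest for 25.2% and lowest for 30.7%. Scaling by library size only left the same counts of 5 and 3 for the 10 genes, with 14.8% and 44.2% for all genes. Mouse 7 also had the highest sum of mature neutrophil markers (8 of 8 detected, 109600 CPM, against 23160 and 60700 in mice 8 and 5 and 10220 to 54320 in Tet2+/+ mice), and the part of this in the split was not tested.

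**Figure D4:**
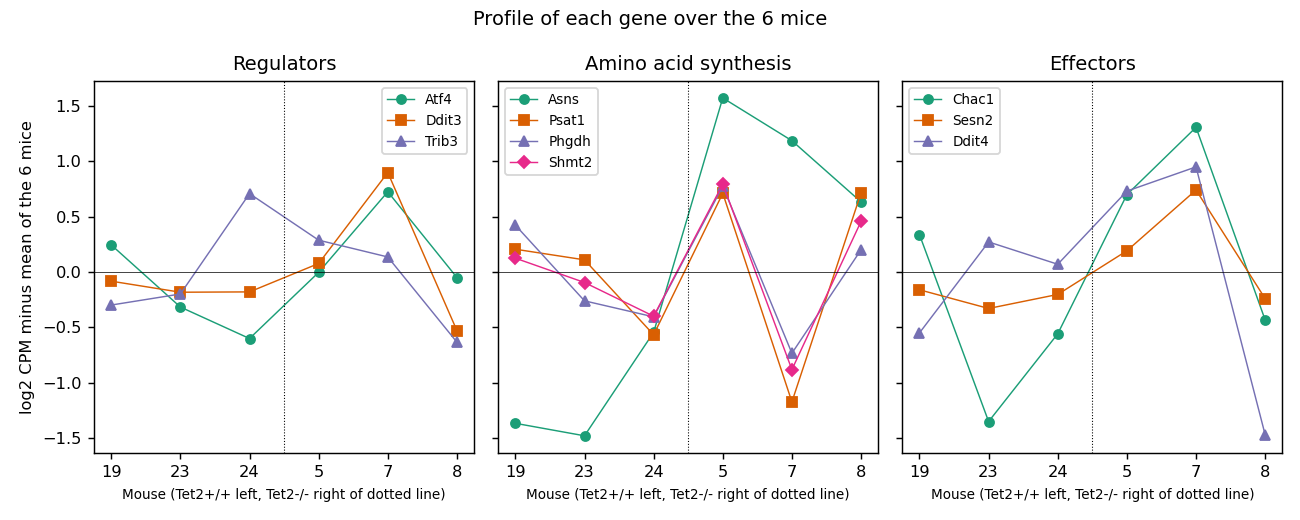
Log2 CPM of each gene minus its mean over the 6 mice, by mouse and role of the gene. Lines only join the points of a gene. In mouse 7, Atf4, Ddit3 and the 3 effectors are at their highest, at 0.73 to 1.31, while Psat1, Phgdh and Shmt2 are at their lowest, at -1.18 to -0.73.

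Likeness among the 10 genes was closest within 2 sets of 3 genes. The measure was the root mean square difference, over the 6 mice, of log2 CPM centred on each gene's mean. The 6 smallest of the 45 pairwise differences, from 0.158 for Ddit3 and Sesn2 to 0.335 for Psat1 and Phgdh, all lay within Atf4, Ddit3 and Sesn2 or within Psat1, Phgdh and Shmt2. The next pair, Trib3 and Sesn2, stood at 0.483 and the median pair at 0.822. Asns and Psat1 were the pair farthest apart, at 1.38. Asns was nearest to Chac1, at 0.899.

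Leaving out a mouse moved the count of genes without overlap more than the count of positive fold changes. Without mouse 8, Ddit3, Asns, Chac1, Sesn2 and Ddit4 were higher in both remaining Tet2-/- mice than in any Tet2+/+ mouse, which is 5 of 10 genes against 12.6% of all tested genes. Without mouse 19 this held for Atf4, Asns and Chac1, 3 of 10 genes, also against 12.6%. Without mouse 5, 23 or 24 it held for Asns alone, 1 of 10 genes against 10.5%, 9.5% and 8.92%. Positive fold changes numbered 8 to 10 of 10 in these comparisons, and in none of them did any of the 10 genes pass an adjusted p of 0.05.

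Compared per length, the 10 genes spanned a wide range. The mean over all 6 mice was 137 TPM for Atf4, 51.5 for Shmt2, 30.1 for Phgdh and 22.6 for Psat1. It was 14.3 TPM for Ddit3, 12.8 for Ddit4, 8.39 for Asns, 4.85 for Sesn2, 1.08 for Chac1 and 0.316 for Trib3. In every mouse Atf4 was above Shmt2, Shmt2 above Phgdh, Sesn2 above Chac1 and Chac1 above Trib3. Ddit3 and Ddit4 changed places in 2 mice, as did Ddit4 and Asns, and Asns was above Sesn2 only in the 3 Tet2-/- mice. In mice 7 and 8 that order rests on the short transcripts, since Asns-201 alone, at 6.74, 5.07 and 3.79 TPM in mice 5, 7 and 8, was above Sesn2, at 4.94, 7.45 and 4.0 TPM, in mouse 5 only.

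The pathway around these genes was read from 13 gene lists, and 0 of 160 tested genes passed an adjusted p of 0.05 in edgeR's quasi-likelihood test. At an unadjusted p under 0.05, 13 were higher and 4 lower in Tet2-/- blasts, where 3% and 5.12% of all tested genes were. DESeq2 on the same counts called 2, which were Mthfd2 (higher, as 0.331% of all genes were) and Slc36a4 (lower, as 1.83% were). On length-scaled counts it called Mthfd2 (higher, as 0.341% were) and Slc36a4 and Cbs (lower, as 1.73% were). Cbs was named after its values were seen and had 0.0643 to 1.08 CPM. Without overlap, 9.38% of these genes were higher and 5% lower, against the 6.41% and 7.94% of all tested genes given above. In each list, the genes named are from the 2 with the smallest unadjusted p. At the top of the pathway, 17 of 17 genes for eIF2 kinases and the eIF2 cycle were tested, with a median log2 fold change of 0.11, 0 of them higher and 1 lower in all 3 Tet2-/- mice. That gene was Impact, an inhibitor of the kinase GCN2, with 20.4, 22.8 and 22.8 CPM in Tet2+/+ and 16.4, 12.1 and 17.5 CPM in Tet2-/- mice (log2 fold change -0.52, unadjusted p 0.0443, edgeR). Ppp1r15b, which directs a phosphatase to eIF2, had 215 ± 50.4 (SD, n = 3) and 315 ± 78.1 CPM (SD, n = 3), with overlap.

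Of 20 bZIP partners and stress factors, none was free of overlap, and the median log2 fold change was 0.32. Cebpd and Mafg, both bZIP factors, had values of 85.7 ± 2.45 and 137 ± 52.6 CPM (SD, n = 3), and of 158 ± 23.8 and 231 ± 54.7 CPM (SD, n = 3). Mouse 8 lay within the Tet2+/+ range for Mafg and below it for Cebpd.

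Among 17 further genes of serine, one-carbon and amino acid synthesis, 2 were higher and 2 lower in all 3 Tet2-/- mice, with a median of 0.16. Mthfd2, the mitochondrial one-carbon enzyme that acts after SHMT2, had 37.5, 32.5 and 22.0 CPM in mice 19, 23 and 24 and 70.6, 50.9 and 58.0 CPM in mice 5, 7 and 8. Its log2 fold change was 0.96 ± 0.24 (SE), with an adjusted p of 0.396 by edgeR and 0.0329 by DESeq2 on the same counts. As for Shmt2, mouse 7 was the lowest of the Tet2-/- mice, but for Mthfd2 it stayed above every Tet2+/+ mouse. The 2 lower genes, Aldh1l1 and Aldh1l2, were named after their values were seen and were below 0.6 CPM in every mouse.

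For 13 amino acid transporters, 2 were higher and 1 was lower without overlap, and the median was 0.29. Slc3a2, the heavy chain that several amino acid exchangers share, had 79.1, 59.2 and 62.4 CPM in mice 19, 23 and 24 and 91.7, 90.3 and 85.7 CPM in mice 5, 7 and 8 (log2 fold change 0.42, edgeR adjusted p 0.604). Slc38a2, a neutral amino acid transporter named after its values were seen, had 438, 421 and 305 CPM and then 445, 584 and 565 CPM. Slc36a4, a proline and tryptophan transporter, was lower without overlap, but its level in mouse 19 (0.598 CPM) was near those of the Tet2-/- mice (0.257 to 0.543 CPM), and only mice 23 and 24 were far higher, at 33.2 and 44.4 CPM. It had an edgeR adjusted p of 0.324 and was called lower by DESeq2 on the same counts (4.63e-06).

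Of 20 aminoacyl-tRNA synthetases, 17 had fold changes above 0, with a median of 0.17, and 1 was free of overlap. This was Cars, the cysteinyl-tRNA synthetase, with 28.7 ± 3.05 and 38.4 ± 2.74 CPM (SD, n = 3). Mars, the methionyl-tRNA synthetase, had 53.7 ± 5.48 and 70.1 ± 12.5 CPM (SD, n = 3), with overlap.

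Of 20 other targets of ATF4 and CHOP, 17 were tested, with a median of 0.21, 3 higher and 1 lower without overlap. Ero1l, an oxidase of the endoplasmic reticulum that CHOP induces, had 273, 132 and 185 CPM in mice 19, 23 and 24 and 367, 416 and 307 CPM in mice 5, 7 and 8 (log2 fold change 0.89, edgeR adjusted p 0.544). Herpud1, a factor in degradation of misfolded proteins, had 74.4 ± 7.91 and 97.8 ± 2.99 CPM (SD, n = 3). The third was Eif4ebp1, a repressor of cap-dependent translation, and the lower gene was Gdf15, a secreted stress factor at 1.14 to 2.20 CPM against 0.597 to 1.11, both named after their values were seen.

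The closest relatives of the members overlapped between the genotypes. Of 7 sestrins and mTORC1 inhibitors, 6 were tested and all overlapped, with a median of 0.04. Sesn3, at 15.2 ± 4.77 and 9.39 ± 1.34 CPM (SD, n = 3), differed by -0.70 on the log2 scale where Sesn2 differed by 0.52, and Akt1s1 had 19.1 ± 1.06 and 21.5 ± 4.31 CPM (SD, n = 3). All 3 tribbles and CHAC relatives overlapped too. Trib1 reached 508 CPM in mouse 7, against 18.3 to 146 CPM in the other mice, and Chac2 had 3.76 ± 0.62 and 4.96 ± 1.32 CPM (SD, n = 3).

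Neighbouring stress pathways were read the same way. Of 18 endoplasmic reticulum chaperones and unfolded protein response genes, 3 were higher and 1 lower without overlap, with a median of 0.14. Dnajb11 had 77.0 ± 8.29 and 107 ± 16.4 CPM (SD, n = 3) and Syvn1 had 63.4 ± 4.67 and 87.7 ± 20.6 CPM (SD, n = 3), while the lower gene, the chaperone Calr, was named after its values were seen and had 1049, 1324 and 1060 CPM against 902, 576 and 868. Of 8 mitochondrial stress genes, 1 was higher without overlap, the protease gene Yme1l1, with 106 ± 2.25 and 123 ± 2.82 CPM (SD, n = 3). Clpp overlapped, with 12.6 ± 1.51 and 14.7 ± 4.38 CPM (SD, n = 3), and the median was 0.002.

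Since Ddit4 also answers to other signals, 3 further lists were read for it. Of 12 hypoxia and HIF targets, 10 were tested, 9 had fold changes above 0 and 1 was higher without overlap, with a median of 0.59. That gene was Ndrg1, at 96.1 ± 22.4 and 156 ± 26.8 CPM (SD, n = 3), and Slc2a1 had 25.2 ± 5.62 and 45.2 ± 18.3 CPM (SD, n = 3). All 6 glucocorticoid-responsive genes were tested, with 2 higher and 1 lower without overlap and a median of 0.88. Per1 had 19.7, 18.9 and 18.6 CPM in mice 19, 23 and 24 and 94, 33.2 and 22.6 CPM in mice 5, 7 and 8, and Zbtb16 had 13.1 ± 4.27 and 5.71 ± 2.12 CPM (SD, n = 3). Of 10 p53 targets, 9 were tested, 1 was lower without overlap and the median was 0.13. That gene was Zmat3, at 3.76 ± 1.84 and 1.53 ± 0.52 CPM (SD, n = 3), and Cdkn1a had 37.2 ± 24.2 and 68.6 ± 23.4 CPM (SD, n = 3).

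**Figure D5:**
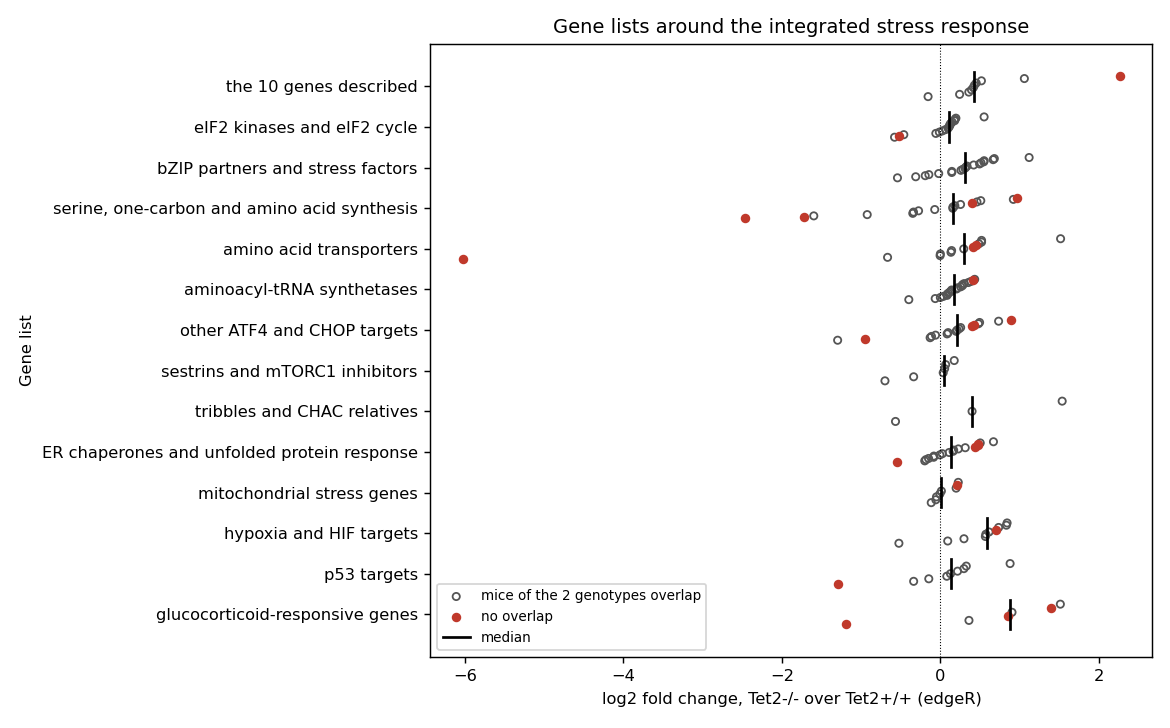
Log2 fold change (edgeR, Tet2-/- over Tet2+/+) of each tested gene in the 10 genes described and in 13 lists around them, with filled points for genes without overlap between genotypes and a line at each median. Asns lies at the right end of the top row, and the point at -6.02 is Slc36a4.

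The genes other than the 10 whose profile over the 6 mice was most like the mean profile of the 10 genes were Cox17, Trappc2, Ncln, Hcfc1r1 and Ndufb7. Their root mean square differences from it were 0.0529, 0.0805, 0.0908, 0.0936 and 0.0942 on the log2 scale, among 9167 genes that average 10 CPM or more. The mean profile itself stood at -0.11, -0.38 and -0.27 in mice 19, 23 and 24 and at 0.58, 0.32 and -0.14 in mice 5, 7 and 8, so mouse 8 was within the range of the Tet2+/+ mice. The value in mouse 7 averages 5 genes at their highest and 3 at their lowest, so the mean is not the profile of each gene.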

How the data were processed

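RNA of sorted AML blasts from 3 mice per genotype was compared, with 1 library per mouse, so that p-values measure the spread between mice. The mice are transplant recipients, and the labels do not name their donors. Whether mice of a genotype shared a donor is therefore not known. Per the labels and the authors' methods, TruSeq RNA v2 libraries, which do not mark strand, were run on a NextSeq, and Salmon 0.12.0 (within bcbio) estimated abundances for Ensembl transcripts of GRCm38. The authors deposited Salmon's estimated counts, not normalized between mice, and its TPM, corrected for effective transcript length.

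For each GENCODE M21 gene, the estimated counts of its transcripts were added up and rounded (Python 3.11.15, pandas 2.3.3), leaving out 112 transcripts of no gene (0.0307% to 0.0416% of reads). Genes with a sum of 10 or more library-size-normalized counts were tested with edgeR 4.0.16 (R 4.3.3), by the quasi-likelihood test with TMM factors, no covariates and Benjamini-Hochberg adjustment over all 22170 genes at 0.05. Standard errors were taken as the ratio of log2 fold change to the root of F. Single genes and transcript shares were also compared by exact two-sided permutation tests. The study's own comparison used DESeq2 on length-scaled counts, which was run as an alternative with DESeq2 1.42.0. Other alternatives were RLE factors, library size only, no filter, filterByExpr and leaving out each mouse. Sequence shared between transcripts was found with BLAST+ 2.17.0 (95% identity or more, over 50% or more of its length), and plots were made in matplotlib 3.10.9. The tests were tested on simulated data.

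The members and gene lists were chosen with earlier results of these data known. In each list, the genes named are the 2 with the smallest unadjusted edgeR p and a mean of at least 1 CPM, and for likeness the 5 nearest genes of at least 10 CPM. Others are marked, and 1 gene that the rule names is not reported here. Symbols Gcn1 and Mars1 were matched through RefSeq synonyms. All 10 members had a RefSeq gene start window. No batch is given in the labels. Proteins were not analysed here.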

Additional observations from a re-analysis of the deposited data

How the results depend on the processing

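For the 10 genes, 123 of 130 log2 fold changes under the 13 alternatives kept their direction and their side of the threshold. Asns passed the threshold under DESeq2, DESeq2 on length-scaled counts and edgeR with no filter on low counts, so that 1 of 10 genes was called there in place of 0, and leaving out a mouse gave 0 throughout. Directions turned in 4 cases. Leaving out a mouse gave Ddit3 log2 fold changes from -0.042 (without mouse 7) to 0.693, Phgdh from -0.169 (without mouse 5) to 0.557, and Trib3 from -0.358 to 0.237 (without mouse 24), with 0.07 without mouse 8. The cause was not tested. Over all genes, 10 were called lower and 0 higher. DESeq2 called 326 lower and 59 higher, DESeq2 on length-scaled counts 325 and 64, edgeR on length-scaled counts 5 lower, no filter 62 and 4, and leaving out a mouse 0 to 7 lower and 0 higher. RLE factors and filterByExpr each called 1 gene higher. At an unadjusted p under 0.05, edgeR had 1135 genes lower and 664 higher. Scaling by library size alone moved the median over all genes from 0.0016 to -0.17 on the log2 scale. The share of Asns-201 differed by -15.1 percentage points in reads and -47.9 in TPM, and that of Phgdh-201 by 2.49 and 6.35. No paired analysis was possible because the mouse numbers differ between the genotypes. With 3 mice per genotype and a biological coefficient of variation of 43.6%, the 95% intervals of 9 genes leave differences in both directions possible.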
